A study of Rattus norvegicus with 6 samples.

Results

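A set of 10 known targets of the glucocorticoid receptor that act in transcription or in signalling feedback (Klf9, Klf15, Zbtb16, Tsc22d3, Cebpb, Cebpd, Bcl6, Errfi1, Arrdc2 and Tiparp) was followed in old rats, whose hippocampus was profiled after sevoflurane, an inhaled anesthetic. They are 10 of 22093 genes with a single symbol on the array. The genes were chosen by their known regulation, with earlier results of this same comparison in view, and each is represented by the probe set (the group of probes that measures one transcript) with the highest mean over the 6 arrays. Each of the 10 had 1 single-symbol probe set, so the level decided no choice among probe sets. Because of the choice of genes, their differences between the groups are a description and no independent evidence.

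The sevoflurane group held 3 male Sprague-Dawley rats of 18 months that inhaled sevoflurane at 2.5%, carried in 100% oxygen, over 4 h, and the control group held 3 such rats given only the 100% oxygen over the same 4 h. Hippocampi were taken 3 h after exposure, and each rat gave 1 array (Clariom D Pico, 1 colour). Controls sat in a like chamber at the same gas flow. The study's methods describe a recovery period in oxygen after anesthesia, which is stated for the anesthetised rats. In whole tissue, a change in the number of cells of a type and a change in RNA per cell cannot be told apart.

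Glucocorticoids, cortisol in humans and corticosterone in rats, are released under stress and in a daily rhythm. They enter cells and bind the glucocorticoid receptor, which moves to the nucleus, binds response elements in DNA and switches on a set of early target genes. Several of these targets are themselves regulators, so that a hormone pulse is passed on as repressors, activators and inhibitors of signalling. The hippocampus is rich in corticosteroid receptors and is a classical site of this action in the brain.

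Promoter windows of 300 bases, from 250 bases before to 50 bases after a RefSeq transcription start, were on hand for 8 of the 10 members, with 3 windows for Tsc22d3, which made 10 windows. Each was searched on both strands for the glucocorticoid response element, given as AGAACA, a spacer of 3 bases of any kind and the reverse complement of AGAACA, with up to 2 mismatches. None of the 10 windows held it, against 1.87% of all 33469 windows in the table. The word AGAACA alone was also in 0 of the 10 windows, against 20.7% of all. This says only that these letters are not in these windows.

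A further 4 short words were searched after the sequences had been read. The word TGACG of the cyclic AMP response element was in 6 of the 10 windows, of 6 members, against 21.2% of all windows. The E-box CACGTG, the word bound by clock factors, was in 2 of the 10, of Klf15 and Bcl6, against 6.42% of all. The core GCGTG bound by the aryl hydrocarbon receptor was in 8 of the 10 windows, of 7 members, against 29.7% of all windows. TATAAA was in 3 of the 10, of 3 members, against 14.2%. The members' windows were rich in G and C, between 50.7% and 81.0%, and the shares were not matched for this. Counted from the transcription start, TGACG began at -79 in Klf9, at -176 and -104 in Klf15, at -75 and -65 in 1 window of Tsc22d3, at -56 in Errfi1, at -215 and -193 in Bcl6, and at -234, -107 and -61 in Cebpb. The E-box of Klf15 began at -101 and overlapped TGACG, as did that of Bcl6 at -197. A match is a description and no sign that a factor binds.

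Windows of 5 genes are shown, 4 of them of genes with a higher level after sevoflurane and that of Cebpb, which had nearly the same level in both groups. Capitals mark TGACG on either strand and CACGTG, and Arrdc2 holds neither. The sequences are from RefSeq on build GRCr8, written from 5′ to 3′ on the strand of the gene.
Klf9, chr1:230126396-230126695, plus strand: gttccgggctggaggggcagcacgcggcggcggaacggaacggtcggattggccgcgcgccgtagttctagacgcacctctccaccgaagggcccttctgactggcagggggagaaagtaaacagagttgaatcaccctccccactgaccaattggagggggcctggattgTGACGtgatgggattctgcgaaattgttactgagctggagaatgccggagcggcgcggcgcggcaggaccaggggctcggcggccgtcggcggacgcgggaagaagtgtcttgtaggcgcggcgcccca
Klf15, chr4:124522765-124523064, plus strand: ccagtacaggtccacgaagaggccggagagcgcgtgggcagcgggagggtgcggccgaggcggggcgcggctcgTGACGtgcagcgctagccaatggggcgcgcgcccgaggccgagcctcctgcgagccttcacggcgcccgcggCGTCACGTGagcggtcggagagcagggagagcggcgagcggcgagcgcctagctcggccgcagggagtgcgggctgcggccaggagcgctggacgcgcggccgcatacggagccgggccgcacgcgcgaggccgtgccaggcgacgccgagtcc
Tsc22d3, chrX:109009985-109010284, minus strand: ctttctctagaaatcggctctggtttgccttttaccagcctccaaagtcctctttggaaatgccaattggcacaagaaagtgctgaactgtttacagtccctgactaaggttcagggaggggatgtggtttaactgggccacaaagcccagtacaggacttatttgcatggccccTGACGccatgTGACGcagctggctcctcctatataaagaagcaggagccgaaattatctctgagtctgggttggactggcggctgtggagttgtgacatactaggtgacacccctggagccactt
Arrdc2, chr16:18635633-18635932, plus strand: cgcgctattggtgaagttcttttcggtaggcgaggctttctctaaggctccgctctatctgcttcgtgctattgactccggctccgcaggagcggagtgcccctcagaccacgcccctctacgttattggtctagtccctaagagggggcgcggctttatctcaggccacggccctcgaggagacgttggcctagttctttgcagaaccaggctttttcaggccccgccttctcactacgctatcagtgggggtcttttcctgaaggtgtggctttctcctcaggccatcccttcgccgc
Cebpb, chr3:176816755-176817054, plus strand: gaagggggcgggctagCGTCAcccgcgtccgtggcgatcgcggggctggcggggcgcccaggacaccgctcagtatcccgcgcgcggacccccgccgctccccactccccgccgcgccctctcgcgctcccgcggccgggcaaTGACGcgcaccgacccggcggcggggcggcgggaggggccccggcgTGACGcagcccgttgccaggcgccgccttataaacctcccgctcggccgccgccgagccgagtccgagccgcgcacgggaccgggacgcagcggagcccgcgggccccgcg

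On these arrays the deposited values are normalized log2 levels. Each member exceeded the median of the background controls on every one of the 6 arrays, the closest being Tiparp, which was 2.32 above it on its lowest array. The array of sevoflurane replicate 1 was the least like the rest, with a mean correlation of 0.986 across probe sets, whereas the others had 0.991 to 0.993. The hippocampal neuron genes Prox1, of the dentate gyrus, and Neurod6, of pyramidal cells, were measured at means of 8.22 and 7.78 in the sevoflurane group and of 8.15 and 7.99 in the control group, so that markers of the labelled tissue were present. Groups were compared with limma over all 68842 probe sets. A gene is called here when its unadjusted p from limma was under 0.05, since after Benjamini-Hochberg adjustment 0 probe sets (0%) passed, with a smallest adjusted p of 0.184.

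Of the 10 members, 7 were called higher after sevoflurane and 0 lower. Over all 22093 genes, 1.1% were called higher and 0.222% lower. The 7 were Zbtb16, Errfi1, Arrdc2, Klf9, Tsc22d3, Cebpd and Klf15, and Bcl6, Tiparp and Cebpb were not called. In the same 7 genes every sevoflurane array lay above every control array, which held for 4.93% of all genes, and the reverse order was seen in 0 members and in 1.34% of all genes. All 10 log2 fold changes were positive, as were 62.5% of those of all genes. Of all genes called in either direction, 83.2% were higher, against 60.0% without sevoflurane replicate 1, 69.0% without control replicate 1 and 55.9% with array weights. The median log2 fold change of the 10 members was 0.33, and that of all genes was 0.02. Levels over 1.5-fold higher after sevoflurane were measured for Zbtb16 and Errfi1, and for 0.249% of all genes. No member passed after adjustment, each at an adjusted p of 1. For a single gene the exact permutation test (two-sided) of 3 arrays against 3 cannot give a p under 0.1, which each of the 7 reached, while Bcl6 was at 0.4 and Cebpb and Tiparp at 0.6.

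**Figure D1:**
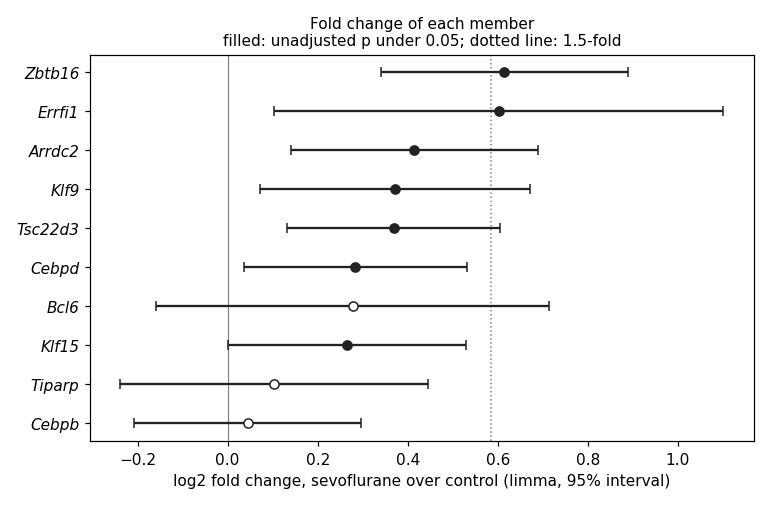
The log2 fold change of each member (sevoflurane over control, limma, all 6 arrays) with its 95% interval, from Zbtb16 at 0.61 at the top to Cebpb at 0.04 at the bottom. Filled points have an unadjusted p under 0.05, and the dotted line marks 1.5-fold, which only the points of Zbtb16 and Errfi1 passed.

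Zbtb16, which encodes the zinc finger repressor PLZF, showed the largest difference of the 10. Its log2 level was 8.80, 8.86 and 9.05 on the sevoflurane arrays, against 8.16, 8.31 and 8.39 on the control arrays. The groups were separated by 0.41, the widest gap among the members. The difference was 1.53-fold, with a log2 fold change of 0.61 (standard error 0.12, 95% interval 0.34 to 0.89, unadjusted p of 0.000774 from limma).

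Bcl6 encodes a repressor built like PLZF, with a BTB domain that recruits corepressors and zinc fingers that bind DNA. It measured 7.82, 8.45 and 8.51 after sevoflurane, against 8.13, 7.84 and 7.98 in controls. Sevoflurane replicate 1 was the lowest of all 6 arrays, whereas the other two sevoflurane arrays were the highest, so the groups overlapped. The log2 fold change was 0.28 with an interval of -0.16 to 0.71 (unadjusted p of 0.182 from limma), and Bcl6 was not called. Leaving out sevoflurane replicate 1 gave 0.50 (unadjusted p of 0.00252 from limma), the only one of the 6 fits without 1 array that called Bcl6, while leaving out sevoflurane replicate 3 gave 0.15 (unadjusted p of 0.469) and sevoflurane replicate 2 gave 0.18 (unadjusted p of 0.424).

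Klf9 is a Krüppel-like zinc finger protein that represses transcription and is induced in neurons by glucocorticoids and by thyroid hormone. Its log2 level was 8.83, 9.21 and 9.20 in the sevoflurane group and 8.66, 8.77 and 8.70 in the control group. Replicates 2 and 3 of the sevoflurane group were close to each other, and replicate 1 lay just 0.07 above the highest control array. The log2 fold change was 0.37 (standard error 0.13, interval 0.07 to 0.67, unadjusted p of 0.0208 from limma).

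Klf15, a relative of Klf9 that regulates amino acid and glucose metabolism, differed less and in another order of the arrays. It was at 6.83, 6.72 and 6.70 after sevoflurane, against 6.33, 6.55 and 6.58 in controls. Here sevoflurane replicate 1 was the highest array, and control replicate 1 was the lowest. The same arrays had the highest and the lowest median of the background controls, at 3.96 and 3.46. Without control replicate 1 the log2 fold change was 0.19. The part of the background in the order of Klf15 was not tested. With a log2 fold change of 0.27 (interval 0.0013 to 0.53, unadjusted p of 0.0491 from limma), it was the member closest to the threshold on the called side. It was called in none of the 6 fits that leave out 1 array, where its p was between 0.0635 and 0.189.

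Tsc22d3 encodes GILZ, the glucocorticoid-induced leucine zipper protein, which binds and restrains the inflammatory factors NF-kappaB and AP-1. Its levels were 7.69, 7.64 and 7.59 in sevoflurane rats and 7.29, 7.19 and 7.33 in control rats. Both groups were tight, and its pooled SD of 0.06 was the smallest of the 10 members. It had a log2 fold change of 0.37, about the size of that of Klf9, with a smaller standard error of 0.10 (interval 0.13 to 0.61, unadjusted p of 0.00681 from limma).

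The pair of CCAAT/enhancer-binding proteins, leucine zipper activators of acute phase and differentiation genes, gave unlike values. Cebpd measured 7.42, 7.64 and 7.56 on the sevoflurane arrays, against 7.22, 7.25 and 7.29 on the control arrays. Every sevoflurane array was above the controls, and the log2 fold change was 0.28 (standard error 0.11, interval 0.04 to 0.53, unadjusted p of 0.0290 from limma). Cebpb was at 7.52, 7.41 and 7.43 after sevoflurane and at 7.38, 7.54 and 7.32 in controls. The groups were interleaved, with a log2 fold change of 0.04 and an interval of -0.21 to 0.30 (unadjusted p of 0.699 from limma). The interval leaves room for a difference as large as that of Cebpd, and the difference between the pair was not tested.

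Errfi1 encodes MIG6, an inhibitor of the EGF receptor kinase that is made in response to receptor signalling as well as to glucocorticoids. Its log2 level was 8.31, 8.92 and 9.26 after sevoflurane, against 8.31, 8.13 and 8.25 in controls. Sevoflurane replicate 1 stood level with the highest control array, above it by 0.0027, so the absence of overlap rests on that margin. Sevoflurane replicate 3 was the highest by a wide margin. The difference was 1.52-fold, at a log2 fold change of 0.60 (standard error 0.22, interval 0.10 to 1.10, unadjusted p of 0.0237 from limma), and the pooled SD of 0.35 was the largest of the 10 members. Without sevoflurane replicate 3 the log2 fold change was 0.39 and it was not called (unadjusted p of 0.0732 from limma).

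Arrdc2, an alpha-arrestin of the family that links membrane proteins to ubiquitin ligases, measured 7.74, 7.80 and 7.90 in the sevoflurane group and 7.22, 7.52 and 7.46 in the control group. All sevoflurane arrays were above the controls by at least 0.22. Its log2 fold change was 0.42, a 1.33-fold difference (standard error 0.12, interval 0.14 to 0.69, unadjusted p of 0.00812 from limma).

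Tiparp encodes a mono-ADP-ribosyltransferase that acts as a feedback inhibitor of the aryl hydrocarbon receptor. It was at 6.28, 6.69 and 6.76 after sevoflurane, against 6.50, 6.35 and 6.57 in controls. As with Bcl6, sevoflurane replicate 1 was the lowest of the 6 arrays and the other two sevoflurane arrays the highest. The log2 fold change was 0.10 with an interval of -0.24 to 0.44 (unadjusted p of 0.508 from limma), and Tiparp was not called. It was 0.25 without sevoflurane replicate 1 (unadjusted p of 0.0427 from limma), the only one of the 6 fits without 1 array that called Tiparp, whereas leaving out sevoflurane replicate 3 gave 0.0089 (unadjusted p of 0.956), sevoflurane replicate 2 gave 0.0476 and control replicate 2 gave 0.0422.

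**Figure D2:**
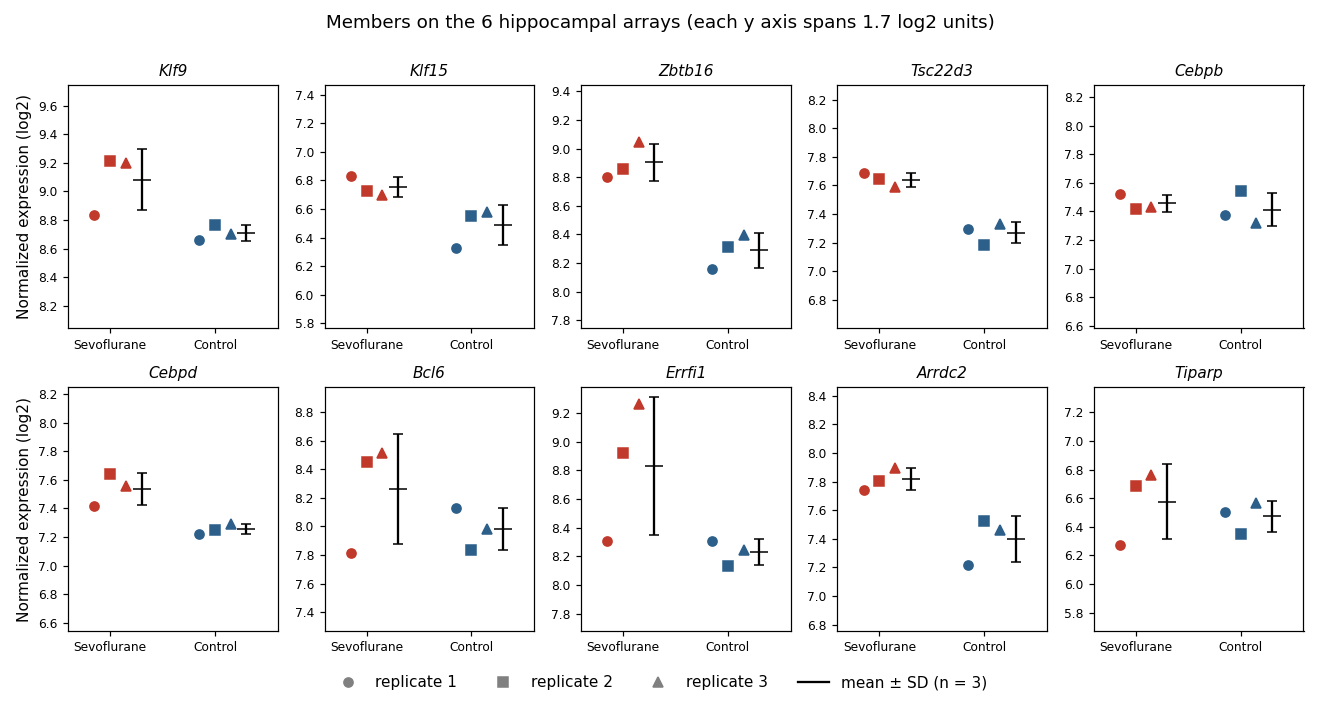
Normalized expression (log2) of the 10 members on each array, sevoflurane at the left and control at the right of each panel, with 1 symbol per replicate and the mean ± SD (n = 3) beside them. In Zbtb16, Tsc22d3 and Arrdc2 the groups are clearly apart, in Errfi1 sevoflurane replicate 1 (circle) lies at the level of the controls, and in Bcl6 and Tiparp it lies below them.

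The members did not share one pattern over the sevoflurane arrays. Sevoflurane replicate 1 was the lowest sevoflurane array for 7 of the 10 members and the highest for the other 3, Klf15, Tsc22d3 and Cebpb. Sevoflurane replicate 3 was the highest for 5 members and replicate 2 for 2. Averaged over the 10 members, the log2 level exceeded that of controls by 0.17 on replicate 1, 0.38 on replicate 2 and 0.45 on replicate 3 of the sevoflurane group, and lay between -0.03 and 0.04 on the control arrays. Over the 11046 genes above the median level, the median of the same quantity was -0.04, 0.04 and 0.06 on the sevoflurane arrays. All 10 members were above their control mean on sevoflurane replicates 2 and 3, and 8 were on replicate 1, where Bcl6 was at -0.17 and Tiparp at -0.20. The SD was larger after sevoflurane than in controls for 6 of the 10 members, most for Errfi1, with 0.48 and 0.09, and Bcl6, with 0.39 and 0.15. The share of all genes with a larger SD is not given here, so this count cannot set the members apart.

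**Figure D3:**
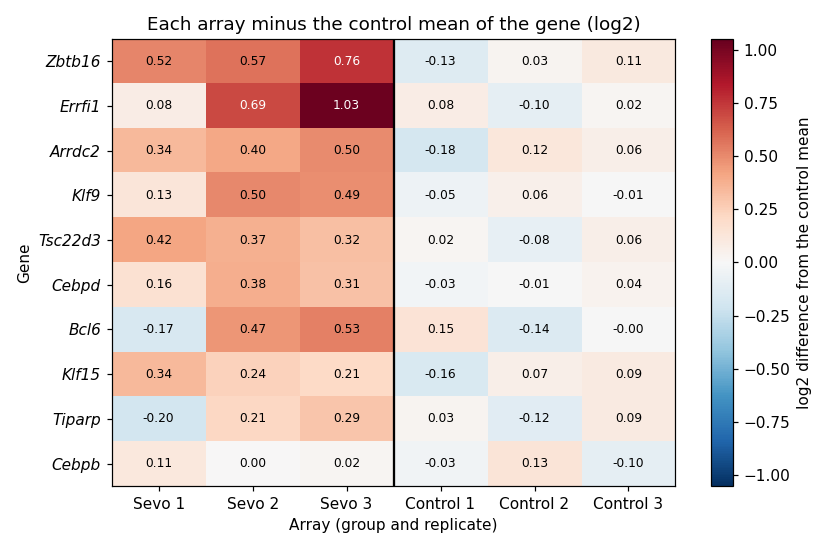
The log2 level of each member on each array minus its control mean, with sevoflurane arrays in the first 3 columns and control arrays in the last 3 (red higher, blue lower). Sevoflurane replicate 3 shows the largest value, 1.03 for Errfi1, while replicate 1 is at 0.08 for the same gene and below 0 for Bcl6 and Tiparp.

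A set of 3 members was called whichever array was left out, namely Zbtb16 (log2 fold change between 0.54 and 0.67), Tsc22d3 (0.33 to 0.40) and Arrdc2 (0.32 to 0.48). The number called was 7 with all arrays, 8 without sevoflurane replicate 1, 3 without sevoflurane replicate 2 or 3 or without control replicate 3, and 4 without control replicate 1 or 2. Over all genes the share called higher in these fits was between 0.534% and 2.77%. Klf9 was called without sevoflurane replicate 1 and without control replicate 2, Errfi1 without sevoflurane replicate 1 and without control replicate 1, and Cebpd without sevoflurane replicate 1. The number of members without overlap was 9 without sevoflurane replicate 1, where 16.6% of all genes had every sevoflurane array above every control array, 8 without control replicate 2 (9.94% of all genes) and 7 in the other 4 fits (6.31% to 9.56%), shares that are larger than the 4.93% with all arrays.

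**Figure D4:**
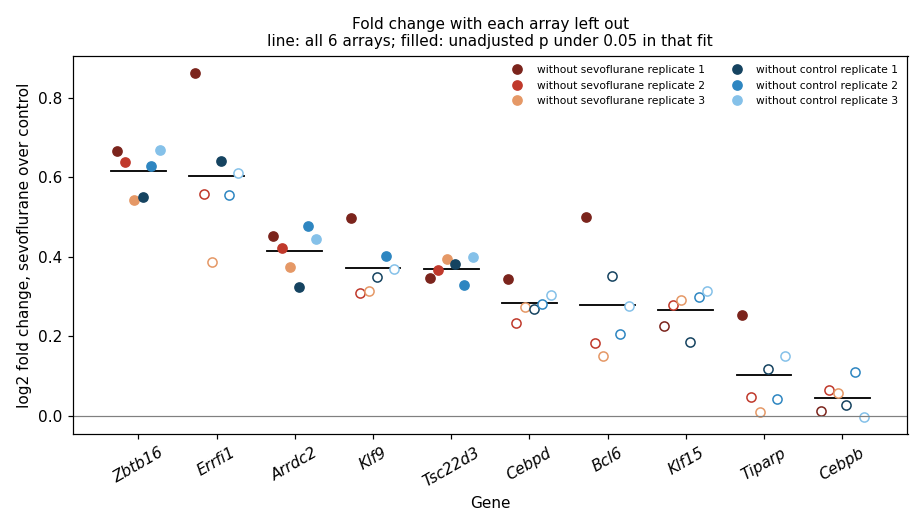
The log2 fold change of each member (sevoflurane over control) with all 6 arrays (black line) and with each array left out in turn (points, filled where the unadjusted p was under 0.05). Zbtb16, Arrdc2 and Tsc22d3 stay filled in all 6 fits, and the values of Errfi1 range from 0.39 without sevoflurane replicate 3 to 0.86 without sevoflurane replicate 1.

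The receptors that bind the hormone were next compared. Of 14 measured corticosteroid receptor genes and partners, 0 were called, while 1.1% of all genes were called higher and 0.222% lower. The glucocorticoid receptor gene Nr3c1 was at 8.33, 8.57 and 8.53 in the sevoflurane group, against 8.63, 8.66 and 8.68 in the control group. All sevoflurane arrays were below the controls, with a log2 fold change of -0.17 (standard error 0.11, unadjusted p of 0.151 from limma). The mineralocorticoid receptor gene Nr3c2 had a log2 fold change of -0.21 (unadjusted p of 0.262 from limma) and the coactivator Ncoa3 of 0.20 (unadjusted p of 0.140 from limma).

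Of 43 other measured genes known to be induced by glucocorticoids, 16 were called higher and 0 lower, against 1.1% and 0.222% of all genes. The median log2 fold change of the 43 was 0.23. Gpd1, glycerol-3-phosphate dehydrogenase of the cytosol, had the smallest p, at a log2 fold change of 1.37. The connexin Gjb6 was at 0.76 and the metallothionein Mt2A at 0.80. The list was written with earlier results of these data known. The study itself names Gjb6, Hif3a and Tgfbr3, all in this list, from these samples. Hif3a was called here at 0.73, while Tgfbr3 at 0.23 was not (unadjusted p of 0.0501 from limma). The study also reports a higher Hif3a by qPCR, with more rats per group than on the arrays.

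Relatives of the members in 5 protein families were set beside them, of which Tsc22d4 also stands in the list of other induced genes. None of 70 measured relatives was called by limma at an unadjusted p under 0.05, and their median log2 fold change was 0.02, with values between -0.30 and 0.26. The members themselves lay between 0.04 and 0.61, and Cebpb and Tiparp were within the range of the relatives. Among 15 other KLF genes the smallest p were those of Klf13 at 0.15, Klf8 at -0.11 and Klf10 at -0.10 on the log2 scale. Among 5 other C/EBP genes they were those of Cebpe at 0.21, Cebpg at 0.11 and Ddit3 at -0.03. The 3 relatives of Tsc22d3, were Tsc22d1 at 0.06, Tsc22d2 at -0.05 and Tsc22d4 at 0.03. Of 42 other BTB zinc finger genes Zbtb7b was at 0.25, Zbtb14 at -0.30 and Zbtb1 at 0.15. The 5 other alpha-arrestin genes had a median of 0.17, with Arrdc3 at 0.26, the redox regulator Txnip at 0.20 and Arrdc5 at 0.17. The share called over all genes was 1.1% higher and 0.222% lower, and the difference between the members and their relatives was not tested.

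**Figure D5:**
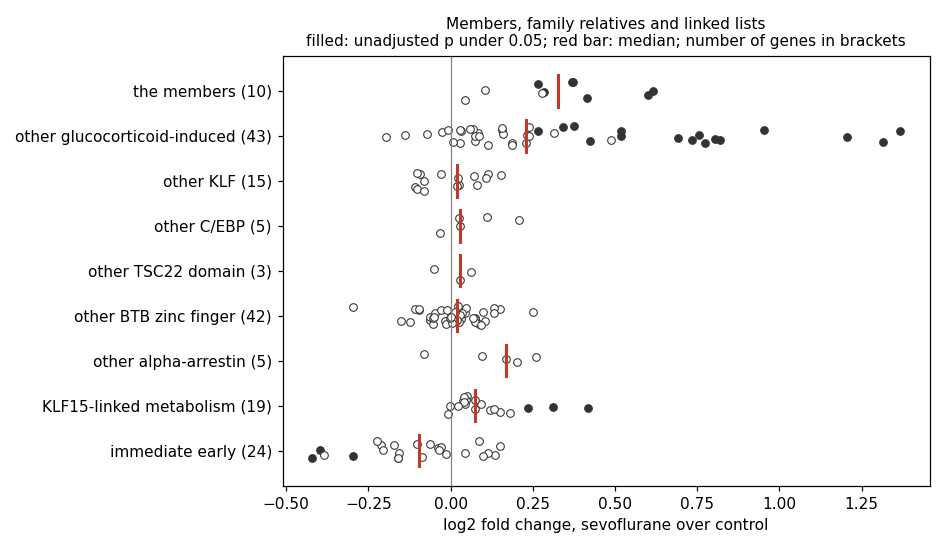
Log2 fold changes (sevoflurane over control) of the members, of other glucocorticoid-induced genes, of family relatives, and of the KLF15-linked and immediate early lists, 1 point per gene, filled where the unadjusted p was under 0.05, with a red bar at the median. The members' median is 0.33 and that of the 43 other glucocorticoid-induced genes 0.23. The KLF, C/EBP, TSC22 domain and BTB zinc finger relatives have medians between 0.02 and 0.03, and the 5 alpha-arrestin relatives a median of 0.17.

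Partners and targets of the members followed. Of 19 genes of amino acid and lipid metabolism linked to KLF15, 3 were called higher and 0 lower, with a median log2 fold change of 0.07. Prodh, the first enzyme of proline breakdown, was at 8.69, 8.47 and 8.56 on the sevoflurane arrays, against 8.03, 8.10 and 8.34 on the control arrays, which did not overlap (log2 fold change 0.42, unadjusted p of 0.00963 from limma). Dbt, a subunit of the branched-chain keto acid dehydrogenase, was at 0.31 and the alanine aminotransferase Gpt2 at 0.24, and each of the pair was called in 1 of the 6 fits without 1 array, that without sevoflurane replicate 1, while Prodh was called in all 6. Of 15 corepressor partners of BCL6 and PLZF 0 were called, and the smallest p were those of Sin3a at -0.12, Hdac4 at 0.09 and Bcorl1 at -0.07. Of 31 genes of the EGF receptor family, its ligands and feedback inhibitors 0 were called, with Lrig3 at 0.20, Nrg3 at -0.20 and Ereg at 0.25. Of 19 genes of the aryl hydrocarbon receptor pathway and relatives of Tiparp 0 were called, with Parp9 at 0.30, Cyp1a1 at 0.22 and Parp12 at 0.13. Of 21 acute phase and inflammatory genes driven by C/EBP factors 2 were called higher, A2m at 0.46 and C3 at 0.98, and 0 lower, and the copper carrier Cp was at 0.45 without a call. C3 was 0.48 without sevoflurane replicate 3, the array on which microglia markers were highest, and was not called without control replicate 1 or 2. A2m lost its call when replicate 2 or 3 of either group was left out. The median of this list was 0.09, and 1.1% of all genes were called higher.

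Some members, such as Cebpb, Tiparp and Errfi1, are also known to be induced by growth factors or neuronal activity, so immediate early genes were set beside them. Of 24 measured, 0 were called higher and 3 lower, against 1.1% and 0.222% of all genes. The median log2 fold change of the list was -0.10. The 3 called lower were Arc at -0.42, Egr1 at -0.40 and Nr4a3 at -0.30. Averaged over the list, the level minus the control mean was -0.06, -0.13 and -0.13 on the sevoflurane arrays. It was -0.14, 0.01 and 0.13 on the control arrays, so control replicate 1 lay below every sevoflurane array. Arc was not called without control or sevoflurane replicate 3, Egr1 without replicate 2 or 3 of either group, and Nr4a3 lost its call when control replicate 1, control replicate 3 or sevoflurane replicate 3 was left out.

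The 5 other genes below lay closest to the mean profile of the 10 members among 11046 genes above the median level, by the root mean square distance of their deviations from the control mean over the 6 arrays. They were Snx9, a sorting nexin, at 0.02, Dbt and Peli2, a ubiquitin ligase, at 0.04 each, and Ralgds, an exchange factor for Ral, and Plcd4, a phospholipase C, at 0.05 each on the log2 scale. Among the members themselves this distance was smallest for Cebpd and Klf9, at 0.06 each, and largest for Errfi1, at 0.28. Snx9 exceeded its control level by 0.20 on replicate 1, 0.42 on replicate 2 and 0.46 on replicate 3 of the sevoflurane group. Each of these 5 was chosen for the profile, so its difference between groups is no finding.

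Marker lists of other tissue and cell types were measured on the same arrays, where 1.1% of all genes were called higher and 0.222% lower. Among 9 marker genes of the thalamus and habenula, which border the hippocampus, 6 were called higher and 0 lower. Among the 6 were Prkcd at a log2 fold change of 1.23, Slc17a6 at 1.02 and Shox2 at 0.78. The study itself names Prkcd from these samples and reports a higher Prkcd by qPCR of hippocampus. Averaged, the 9 markers exceeded their control level by 0.56 on replicate 1, 0.93 on replicate 2 and 0.27 on replicate 3 of the sevoflurane group. On the control arrays they lay between -0.08 and 0.08. Of 9 microglia markers 0 were called, and their mean was -0.03, 0.02 and 0.65 on the sevoflurane arrays, with C1qb at 0.60, Cx3cr1 at 0.31 and Itgam at 0.53 over all arrays. Of 9 astrocyte markers Gjb6 was called higher and 0 lower, with Aqp4 at 0.26 and Sox9 at -0.27. Of 8 oligodendrocyte markers Mag, at 0.39, and Olig1, at 0.39, were called higher and Opalin, at -0.61, lower. Of 8 endothelial markers Slc2a1 at 0.57 was called higher and Itm2a at -0.80 lower, and Esam was at 0.15. Of 9 neuron markers 0 were called, with Slc17a7 at -0.14, Neurod6 at -0.21 and Rbfox3 at -0.11. Of 7 choroid plexus markers 0 were called, with Otx2 at 0.25, Clic6 at 0.17 and Enpp2 at -0.11, and of 6 blood cell markers 2 were called lower, Hba-a3 at -0.46 and Hbb-bs at -0.43, with Hba-a1 at -0.18. Mag and Olig1 lost their call when control replicate 1, control replicate 2, sevoflurane replicate 2 or sevoflurane replicate 3 was left out, and Hbb-bs not without replicate 1 or 2 of either group. Without sevoflurane replicate 2 Slc17a6 was at 0.68, without control replicate 1 Mag was at 0.26, and without sevoflurane replicate 1 Hbb-bs was at -0.27. The part of any of these in the members' differences was not tested.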

How the data were processed

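RNA from hippocampus was hybridised to 6 arrays, 3 for sevoflurane and 3 for control rats, and this number limits the precision. The authors deposited normalized values on a log2 scale, 1 for each probe set on an array. Tools listed in the submitters' processing notes are RMA, MAS5 and Affymetrix Expression Console 1.4.1, with no role stated, and the genome build of the array is not given in the sources used here. Of 70580 probe sets, 1738 controls were left out and 68842 were tested without a filter on level. No pair of arrays held identical values.

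Symbols came from the platform's annotation, where probe sets with several symbols were not used, and 395 of 404 list entries were matched, 4 of them through an updated symbol in RefSeq. The comparison used lmFit and eBayes of limma 3.58.1 under R 4.3.3, two-sided, with Benjamini-Hochberg adjustment over all probe sets. The code of the fit was tested on simulated data with independent noise and no outlying array. That setting differs from these arrays, so the test says nothing on their quality. The members, the 17 gene lists and the 8 marker lists were chosen with earlier results of these data known, and a gene can stand in several lists. The genes named were the members, up to 3 of smallest p in each list and the 5 nearest in profile. Outside this rule, Prox1 was added as a tissue marker and Hif3a and Tgfbr3 as genes the study names, all chosen after their values were seen. Alternatives were the methods' one-way ANOVA, another variance prior, array weights, a replicate block, quantile normalization, a dim probe set filter, median centring, averaged probe sets of a gene and each array left out. Promoters are from RefSeq (GRCr8). Python 3.11.15, pandas 2.3.3 and matplotlib 3.10.9 were used.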

Additional observations from a re-analysis of the deposited data

How the results depend on the processing

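The number of members called higher was 7 with all arrays as deposited, 4 with centring on the median (1.11% of all genes called higher) and between 3 and 8 with 1 array left out (0.534% to 2.77%). It was 6 by the methods' one-way ANOVA (2.49%), without Errfi1 (p of 0.101), 8 with array weights (5.65%), 5 with the replicate block (0.611%) and 7 with another variance prior, quantile normalization, the dim filter and averaged probe sets (1.06% to 1.88%). Members without overlap numbered 4 in place of 7 with centring on the median, where Klf9, Cebpd and Errfi1 overlapped. With this centring 3.95% of all genes had every sevoflurane array above every control array. The median log2 fold change of the members was between 0.29 and 0.40 throughout, and the count of other glucocorticoid-induced genes called higher was between 13 and 22, against 16. After adjustment 0 members passed in any alternative, the smallest adjusted p being 0.130 with array weights, where 23 probe sets passed. With 1 array left out the log2 fold change of Cebpb was between -0.0043 and 0.11, of Ddit3 between -0.0715 and 0.0010, of Tsc22d2 between -0.12 and 0.0691, of Tsc22d4 between -0.0070 and 0.0882 and of Enpp2 between -0.22 and 0.0355. With array weights Nr3c2, Tsc22d2, Neurod6, Rbfox3 and Enpp2 turned to 0.0408, 0.0808, 0.11, 0.0329 and 0.0270, and with quantile normalization Slc17a7 turned to 0.0354. None of these was called, and the cause was not tested. The 5 members called with the replicate block left out Klf15 and Cebpd, and 14 of the other induced genes were called. Samples of the same number did not deviate together (r across probe sets of -0.585, -0.288 and 0.0263). Samples of unlike number had r between -0.504 and 0.558. With values this wide the r cannot show whether samples of a number were handled together.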

Other observations

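Another 4 lists linked to the members' biology are given by their calls by limma at an unadjusted p under 0.05, which 1.1% of all genes passed as higher and 0.222% as lower. Of 17 AP-1 and NF-kappaB subunits and inhibitors, the factors that GILZ binds, 0 were called. The inhibitor Nfkbia had a log2 fold change of 0.49 (unadjusted p of 0.0599 from limma), Fosl2 of 0.20 and Jun of 0.11. Of 19 circadian clock genes, among them partners in the daily rhythm of Klf9 and Tsc22d3, the orphan receptor Rora was called higher at 0.40, and it is also among the thalamus and habenula markers. Per3 was at -0.15 and Per1 at 0.16 without a call. Of 11 genes of thyroid hormone transport and response, which bear on Klf9 as a thyroid hormone target, the deiodinase Dio2 was called higher at 0.32 and the transporter Slco1c1 lower at -0.72, while Thrsp was at 0.16. With 1 array left out Rora and Slco1c1 were called in all 6 fits and Dio2 in 2, those without sevoflurane replicate 1 and without control replicate 3. Of 17 FOXO factors and targets 0 were called, with Foxo3 at 0.19, Fbxo32 at -0.17 and Sesn1 at 0.18.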
